A study of Mus musculus with 8 samples.

Results

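The Ly6 surface protein family was followed through 5 genes of a single-cell table of 16889 genes, Ly6c2, Ly6c1, Ly6a, Ly6i and Ly6e, in cells sorted from the colonic lamina propria of 8 mice. The members were chosen by gene name from the 13 rows of the table whose symbols start with Ly6 and a letter. Earlier results of these data were known then, among them the level of Ly6c2 in monocyte-like cells. Levels across cell types are therefore given as a description with no test. Tests were kept for control against knockout mice, but members, lists and tests were also chosen with those results known. Counts of members or listed genes that were called are thus no independent test. The question was whether Ly6c2 and its neighbours follow the monocytes or follow an interferon state.

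Ly6 proteins are small, disulfide-rich proteins of the Ly6/uPAR superfamily, most of them held on the outer face of the cell membrane by a glycosylphosphatidylinositol anchor. Ly6C, the antigen used to sort classical monocytes that enter the gut wall, is encoded by the near-identical neighbours Ly6c1 and Ly6c2, and its surface level falls as monocytes become macrophages. Ly6a encodes Sca-1, known from stem cells and activated lymphocytes and inducible by interferons, and Ly6e is a broadly expressed interferon-induced gene. Ly6i is a close relative of Ly6a and Ly6c found on myeloid cells.

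All 5 genes lie on chromosome 15 within 156.9 kb (GRCm38, the assembly called mm10 in the submitters' notes), and each is annotated as protein-coding. Ly6e, on the plus strand, spans chr15:74955051-74959905. The other 4 lie on the minus strand, Ly6i at chr15:74979534-74983430, Ly6a at chr15:74994877-74998031, Ly6c1 at chr15:75044018-75048830 and Ly6c2 at chr15:75108158-75111970. Between Ly6c1 and Ly6c2 lie 59.3 kb.

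The coding sequences of Ly6c1 and Ly6c2 were 97.71% identical, with 9 mismatches in 393 bases, whereas Ly6a and Ly6i were 86.32% identical and Ly6e matched the other members at 50.11 to 53.5%. The bases that tell Ly6c1 and Ly6c2 apart decide whether a read can be given to either gene, so the stretch of the coding sequence with the most mismatches, its first 90 bases, is shown with the mismatched bases in capitals. It is spliced from chr15:75047450-75048511 for Ly6c1 and chr15:75110608-75111667 for Ly6c2 and is written 5′ to 3′.
Ly6c1: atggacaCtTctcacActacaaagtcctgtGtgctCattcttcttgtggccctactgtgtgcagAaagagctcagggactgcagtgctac
Ly6c2: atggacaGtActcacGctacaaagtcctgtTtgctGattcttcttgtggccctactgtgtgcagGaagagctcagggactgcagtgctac

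Reads of a 3′ library come mostly from the other end of the transcript. There, in the last 90 coding bases (chr15:75045405-75045494 for Ly6c1 and chr15:75108546-75108635 for Ly6c2, minus strand), 2 mismatches remained, again in capitals.
Ly6c1: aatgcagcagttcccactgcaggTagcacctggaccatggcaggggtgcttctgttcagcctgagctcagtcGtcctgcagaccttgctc
Ly6c2: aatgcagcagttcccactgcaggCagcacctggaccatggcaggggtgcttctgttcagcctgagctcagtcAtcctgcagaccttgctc

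Of the 443 windows of 58 bases (the length of the reads) in the last 500 bases of the Ly6c2 transcript, 67 (15.12%) occurred unchanged in Ly6c1 and all 443 occurred there with at most 2 mismatches. The same counts for Ly6c1 against Ly6c2 were 67 and 439 (99.1%). No window of Ly6a or Ly6i was shared unchanged with another Ly6 gene, although 59 (13.32%) and 60 (13.54%) had a match within 2 mismatches, and no Ly6e window had either. The division of UMIs (unique molecular identifiers, 1 per captured RNA molecule) between Ly6c1 and Ly6c2 is therefore uncertain.

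Cells positive for CD11b and for CCR2 or CD64 were sorted from 8 female CD98ΔCX3CR1 mice, littermates in which Cre, fused to the estrogen receptor and expressed with a yellow fluorescent protein from Cx3cr1, can remove exon 3 of floxed Slc3a2, the gene of the amino acid transporter subunit CD98hc. All 8 mice carried these alleles. The 4 control mice (mice 1 to 4) received corn oil, and the 4 knockout mice (cKO, mice 5 to 8) received 100 µl of 20 mg/ml tamoxifen daily over 5 days. Cells were taken on day 7. Only the cKO mice received tamoxifen, so the deletion and the drug itself cannot be told apart. Slc3a2 did not pass the test between groups over all cells (adjusted p = 0.99), but 3′ counts lie outside the excised exon and do not check the deletion.

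After the study's cell filters 3213 of 5947 barcodes were used, 1863 from control and 1350 from cKO mice. Control mouse 3 and cKO mouse 5 gave 85 and 83 cells and 589135 and 497531 UMIs. The other 6 mice gave 349 to 724 cells and 1653892 to 3762314 UMIs each. A doublet caller marked 73 cells, 24 of them in mouse 5, and 16 used cells carried a barcode name found in more than 1 well. Within clusters, sums of UMIs per mouse were used where they held at least 20 cells, and a level is given in CPM, the share of a sum's UMIs taken by the gene, brought to a common depth.

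The cells formed 9 clusters, built without the Ly6 genes. They were called by markers where these allowed it (monocyte-like, macrophage-like, dendritic cell-like, lymphoid-like, stromal-like) and otherwise by a leading gene (Cd72-led, Cebpb-led, Saa3-led, Ccl8-led). The 12 genes of a monocyte list summed to 13680 CPM in the 487 monocyte-like cells. They summed to 5241 CPM in Saa3-led, 4346 CPM in Cebpb-led, 3900 CPM in stromal-like and 480.0 CPM in macrophage-like cells. The lymphoid-like and stromal-like cells lie outside the cell types the gate was set for.

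Over all cells the members were seen at very different breadth. Ly6e was detected in 87.24% of cells (18509 UMIs), Ly6c2 in 40.09% (14565), Ly6a in 36.69% (6329), Ly6c1 in 18.52% (1834) and Ly6i in 16.99% (1362). Of the 595 cells with Ly6c1, 96.64% also had Ly6c2, and of the 546 cells with Ly6i, 78.39% did. Of the 1179 cells with Ly6a, 61.41% had Ly6c2.

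All 5 members were higher in cKO mice when all cells of a mouse were summed, and for each member every cKO mouse lay above every control mouse. Of the 9135 genes tested, 3.56% were called higher in cKO mice at an adjusted p under 0.05, and in 4.62% the lowest cKO mouse exceeded the highest control mouse. The median log2 fold change was 2.72 over the members and -0.01 over all genes tested.

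Ly6c2 measured 198, 174, 124 and 254 CPM in control mice 1 to 4, and 2330, 1301, 2015 and 1795 CPM in cKO mice 5 to 8. The lowest cKO mouse was thus well above the highest control mouse. The log2 fold change was 3.39 (SE 0.24, adjusted p = 6.57e-05), a 10.5-fold difference.

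Its neighbour Ly6c1 stood at 26.8, 31.8, 44.1 and 40.7 CPM in control mice and at 842, 129, 167 and 190 CPM in cKO mice. Mouse 5 was far above the other cKO mice, and the SD of the cKO group (341 CPM) exceeded its mean (332 CPM). Ly6c1 rose by a log2 fold change of 3.29 (SE 0.57, adjusted p = 0.0108), which became 2.31 (adjusted p = 0.000785) without mouse 5 and 2.67 (adjusted p = 0.00284) without the doublet calls.

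Ly6a, the Sca-1 gene, measured 129, 134, 221 and 144 CPM in control mice and 732, 610, 661 and 801 CPM in cKO mice. Control mouse 3 lay apart from its group, yet below every cKO mouse. The log2 fold change was 2.25 (SE 0.20, adjusted p = 0.000265).

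Ly6i, the scarcest member, measured 20.2, 15.6, 47.5 and 30.3 CPM in control mice against 159, 145, 179 and 154 CPM in cKO mice (log2 fold change 2.72, SE 0.29, adjusted p = 0.000751). Ly6e, the most widely detected, went from 771, 797, 769 and 845 CPM to 1371, 1319, 1472 and 1538 CPM (log2 fold change 0.92, SE 0.11, adjusted p = 0.00195). Ly6e had both the smallest fold change of the 5 and a narrow spread within each group, 795 ± 35.4 CPM in control and 1425 ± 98.7 CPM in cKO mice (SD, n = 4 each).

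**Figure D1:**
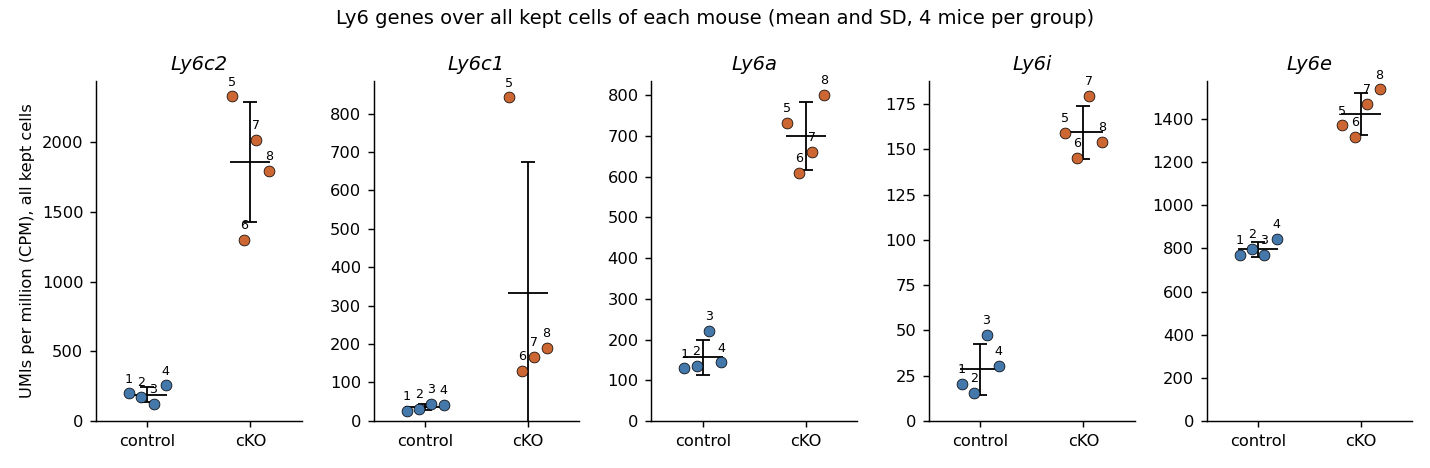
Level of each Ly6 gene over all cells of a mouse (CPM, a linear axis from 0 for each gene), with 1 numbered point per mouse and the mean ± SD of 4 control and 4 cKO mice; the SD bar of Ly6c1 in cKO mice is cut at 0. For each gene the 4 cKO mice lie above the 4 control mice, and cKO mouse 5 stands apart for Ly6c1 at 842 CPM.

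Both yardsticks moved in the same contrast. Of 54 tested genes of an interferon response list 52 were called higher, among them Isg15, a ubiquitin-like modifier (log2 fold change 2.64, adjusted p = 0.0023), Irf7, a transcription factor of the interferon response (2.96, adjusted p = 0.000526), and Ifit3, an antiviral effector (2.46, adjusted p = 0.00694). Usp18 (1.82, adjusted p = 0.0142) passed as well. Of the 12 genes of the monocyte list 7 were called higher, including Chil3 (2.57, adjusted p = 0.0013), Plac8 (1.70, adjusted p = 0.00364) and the haptoglobin gene Hp (2.23, adjusted p = 0.0249). F13a1 (0.72, adjusted p = 0.114) and the chemokine receptor gene Ccr2 (0.10, adjusted p = 0.824) did not pass.

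The make-up of the sorted cells moved with the condition too. Monocyte-like cells made up 2.35 to 8.56% of the cells of a control mouse and 10.84 to 36.78% of a cKO mouse, while dendritic cell-like cells made up 19.89 to 27.33% and 4.55 to 9.68%. Lymphoid-like cells held 2.35 to 6.01% and 4.82 to 8.31%. The summed monocyte list ranged from 1633 to 3128 CPM in control and from 4784 to 8539 CPM in cKO mice, and the 6 detected genes of a plasma cell list from 148 to 8829 CPM and from 4250 to 13010 CPM. In sums over all cells, more cells of a type and more RNA per cell cannot be told apart, so the contrast was also taken inside clusters.

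Averaged over the 7 clusters with enough cells in both conditions (43 sums from the 8 mice), all 5 members were again higher in cKO mice, as were 2.66% of 11076 genes. The log2 fold changes were 2.38 for Ly6a (SE 0.16, adjusted p = 1.02e-17), 2.06 for Ly6c2 (SE 0.22, adjusted p = 2.53e-10), 1.86 for Ly6c1 (SE 0.34, adjusted p = 0.000117), 1.58 for Ly6i (SE 0.25, adjusted p = 1.19e-05) and 0.52 for Ly6e (SE 0.069, adjusted p = 1.02e-07). Set beside the sums over all cells, Ly6c2 went from 10.5-fold to 4.17-fold and Ly6i from 6.58-fold to 2.99-fold, while Ly6a stood at 4.77-fold and 5.22-fold. Without control mouse 4 the averages were 2.74 for Ly6c2 and 2.57 for Ly6i. Several sums came from each mouse, and the edgeR fit treats them as independent. With the mouse as a random term in limma-voom the 5 members stayed called. The correlation within mice in that fit, 0.038, was a single estimate over all genes and not one for the members. Among the cKO sums Ly6a was lowest in mouse 6 in each tested cluster but the lymphoid-like, so the sums of a mouse can move together.

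In the same average 44 of 54 interferon response genes were called higher and none lower. Of the 12 monocyte genes 3 were called higher and 1 lower: Hp (0.88, adjusted p = 0.014), Chil3 (0.97, adjusted p = 0.0319) and Plac8 (0.76, adjusted p = 0.000571) rose. Ccr2 fell by 0.47 on the log2 scale (adjusted p = 0.00239), and F13a1 stood at -0.75 (adjusted p = 0.242).

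Ly6a was called higher in all 7 clusters, in which 0.56% (Cd72-led), 0.298% (dendritic cell-like), 0.903% (monocyte-like), 0.289% (Cebpb-led), 0.397% (Saa3-led), 0.0271% (Ccl8-led) and 0.0903% (lymphoid-like) of 11076 genes were called higher. In monocyte-like cells Ly6a measured 80.5, 21.8 and 49.5 CPM in control mice 1, 2 and 4, and 269, 271 and 357 CPM in cKO mice 6, 7 and 8 (log2 fold change 2.70, SE 0.46, adjusted p = 0.000228). In dendritic cell-like cells it measured 36.9, 53.9, 47.4 and 42.5 CPM in the 4 control mice against 120, 549 and 375 CPM in cKO mice 6, 7 and 8 (2.79, SE 0.36, adjusted p = 1.39e-06). In Cd72-led cells it measured 66.2, 102 and 129 CPM in control mice 1, 2 and 4 against 271, 804 and 946 CPM in cKO mice 6, 7 and 8 (2.74, SE 0.38, adjusted p = 1.83e-06). In none of these 3 clusters did the groups overlap, and the 3 calls held without any single mouse.

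The remaining Ly6a calls had log2 fold changes of 1.95 in Cebpb-led cells (adjusted p = 0.0218), 1.96 in Saa3-led cells (adjusted p = 0.0126), 2.46 in Ccl8-led cells (adjusted p = 0.0147) and 2.09 in lymphoid-like cells (adjusted p = 0.000975). Each of these 4 lost its call without some mouse. The adjusted p was 0.156, 0.266, 0.111 and 0.102 in Cebpb-led cells without mouse 1, 2, 7 and 8, and 0.522, 0.104 and 0.0573 in Saa3-led cells without mouse 4, 7 and 8. It was 0.318, 0.179 and 0.709 in Ccl8-led cells without mouse 1, 2 and 8, and 0.0654 in lymphoid-like cells without mouse 2. The fold change stayed above 0 each time.

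Macrophage-like cells could not be tested, since mouse 8 alone among cKO mice had 20 of them. They were not the only cells with macrophage markers. A list of 15 macrophage genes summed to 73530 CPM in them. In tested clusters it summed to 43930 CPM (Ccl8-led), 23710 CPM (Cd72-led) and 14470 CPM (Cebpb-led). Ccl8-led and Cebpb-led cells were shallow, at medians of 1172 and 1856 UMIs per cell. In macrophage-like cells Ly6a measured 36.7, 55.2 and 56.6 CPM in control mice 1, 2 and 4 and 810 CPM in mouse 8. The smaller cKO sums of 4, 9 and 8 cells in mice 5, 6 and 7 stood at 407, 536 and 951 CPM. Ly6e, in the same order, measured 435, 680 and 518 CPM in the 3 control mice and 1497 CPM in mouse 8.

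Ly6c2 passed the test in 2 of the 7 clusters. In dendritic cell-like cells it measured 40.9, 7.23, 31.6 and 29.6 CPM in the control mice and 29.0, 322 and 608 CPM in cKO mice 6, 7 and 8 (log2 fold change 3.52, SE 0.56, adjusted p = 8.38e-05). Mouse 6 lay inside the control range, and without mouse 8 the call was lost (2.51, adjusted p = 0.184). In Cd72-led cells Ly6c2 measured 171, 185 and 247 CPM against 229, 1082 and 1408 CPM (2.14, SE 0.52, adjusted p = 0.0265), again with mouse 6 inside the control range. That call was lost without mouse 1 (adjusted p = 0.178), 2 (0.0993), 7 (0.144) or 8 (0.490).

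In the monocyte-like cells themselves Ly6c2 measured 1555, 1102 and 1504 CPM in control mice 1, 2 and 4 and 2783, 3634 and 4393 CPM in cKO mice 6, 7 and 8. The groups did not overlap, but the contrast did not pass (log2 fold change 1.59, SE 0.50, adjusted p = 0.121). It passed in limma-voom (adjusted p = 0.0101), with that cluster fitted alone (1.88e-06), with no filter on low counts (7.46e-10) and without mouse 6 (0.0281). The other 4 clusters gave 2.27 (Cebpb-led, adjusted p = 0.0674), 2.34 (Saa3-led, 0.0780), 1.09 (Ccl8-led, 0.804) and 1.47 (lymphoid-like, 0.546).

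Free RNA of lysed cells gives a few UMIs of an abundant gene in every droplet. Ly6c2 UMIs were present in 7.54% of 252 control and 31.71% of 41 cKO macrophage-like cells, at medians of 5260 and 4632 UMIs per cell. With sums under 20 cells included, the macrophage-like sums ran from 8.09 to 24.9 CPM in control and from 109 to 197 CPM in cKO mice. The cKO sums of mice 5 to 8 held only 4, 9, 11 and 10 Ly6c2 UMIs. In the dendritic cell-like cells of mouse 6 Ly6c2 (29.0 CPM, 7 UMIs) was below that cKO range, and in mice 7 and 8 (322 and 608 CPM) it was above it. In cKO macrophage-like cells Ly6a (407 to 951 CPM) was above Ly6c2 in each mouse, whereas in the monocyte-like cells of mice 5 to 8 Ly6c2 (2783 to 6579 CPM) was above Ly6a (269 to 741 CPM). Ly6d, a gene that led the plasma cell-like cells described further on, was also called higher in cKO dendritic cell-like cells (0.786 CPM in control and 27.7 CPM in cKO mice, adjusted p = 0.000304). Of 6 tested plasma cell genes 0 were called there, where 0.298% of all genes were called higher, so that count is no result about them. The plasma cell list summed to 1314 CPM in dendritic cell-like, 1293 CPM in macrophage-like and 224.6 CPM in monocyte-like cells. How much of the Ly6c2 in cells other than monocytes came from free RNA was not tested.

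Ly6c1 was called higher in Cd72-led cells (log2 fold change 2.52, SE 0.53, adjusted p = 0.00354) and in monocyte-like cells (1.87, SE 0.44, adjusted p = 0.0146). In the latter it measured 116, 65.3 and 114 CPM in control mice 1, 2 and 4 and 285, 259 and 409 CPM in cKO mice 6, 7 and 8, with no overlap. The Cd72-led call was lost without mouse 1 (adjusted p = 0.110), 2 (0.0537) or 8 (0.650), and the monocyte-like call without mouse 1 (0.0990), 2 (0.122), 7 (0.0738) or 8 (0.0822).

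Ly6i was called higher in 3 clusters. In Saa3-led cells it measured 30.5 and 41.7 CPM in control mice 1 and 4 against 173, 263 and 281 CPM in cKO mice 6, 7 and 8 (log2 fold change 2.73, SE 0.47, adjusted p = 0.000332), and this call held without any single mouse. In monocyte-like cells it measured 106, 116 and 49.5 CPM against 325, 177 and 268 CPM (1.72, SE 0.40, adjusted p = 0.0115), and without mouse 1, 4 or 8 the adjusted p was 0.0624, 0.0916 or 0.114. In Cd72-led cells the log2 fold change was 1.88 (SE 0.39, adjusted p = 0.00302), with an adjusted p of 0.0964, 0.0797 and 0.114 without mouse 1, 7 and 8.

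Ly6e was called in none of the 7 clusters, where its log2 fold changes ran from 0.41 to 0.66, although its unadjusted p was under 0.05 in all 7. DESeq2 called it in 3 of them (adjusted p = 0.000483 in Cd72-led, 0.00156 in dendritic cell-like and 0.00276 in Cebpb-led cells), and limma-voom in the first 2 (0.00108 and 0.0189). In dendritic cell-like cells Ly6e measured 635, 684, 723 and 676 CPM in control mice and 1069, 1009 and 1039 CPM in cKO mice 6, 7 and 8, groups that lie clearly apart. In all, 14 of the 35 tests of a member in a cluster passed, all higher in cKO mice, against 0.366% of the tests over all genes in the 7 clusters. An unadjusted p under 0.05 in this direction was reached in 29 of the 35 and in 3.9% of the tests over all genes.

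**Figure D2:**
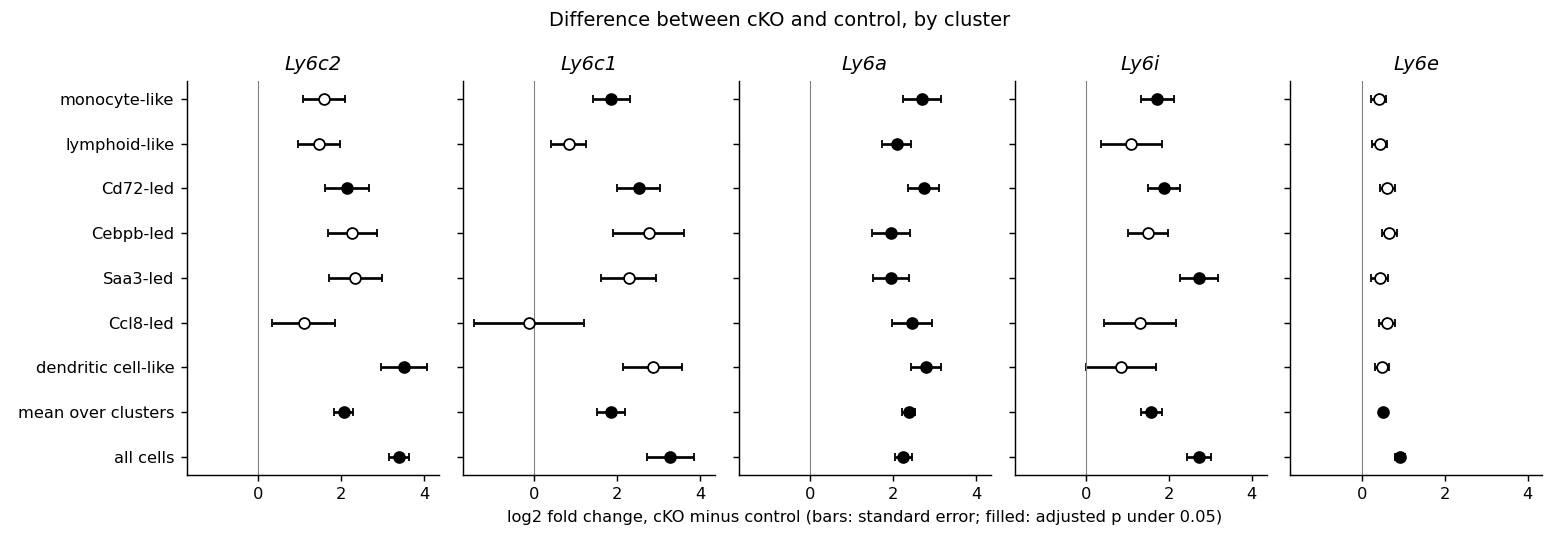
Log2 fold change of cKO against control mice (points, with SE as bars) for each Ly6 gene in each of 7 clusters, averaged over clusters and over all cells (from top to bottom), with filled points for an adjusted p under 0.05 in edgeR. Ly6a is filled at every position, and Ly6e only in the mean over clusters and over all cells.

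Whether the change of a member differed between cell types was tested as the effect in a cluster minus the mean effect in the other clusters. None of the 35 differences passed in edgeR or in limma-voom, and 3 had an unadjusted p under 0.05: Ly6c2 in dendritic cell-like cells, where the effect was larger by 1.70 on the log2 scale, Ly6i in Saa3-led cells, where it was larger by 1.34, and Ly6c1 in lymphoid-like cells, where it was smaller. Over all genes 4.35% of these tests had an unadjusted p under 0.05, so 3 of 35 is read as no result about the members. At an adjusted p under 0.05 the test called 0.0361% of all genes in monocyte-like and 0.0542% in lymphoid-like cells and 0 in the other 5 clusters. A difference between clusters in the change of Ly6a, Ly6c2 or the others was thus not detected, and monocyte-like cells were not shown to change more or less than the rest.

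The members differed in the cell types that held them. Stromal-like cells reached 20 cells only in control mouse 1, so they stand apart from the orders of the other 8 cell types and are given beside them. In control mice Ly6c2 was highest in monocyte-like cells (1387 ± 248 CPM, SD, n = 3) and lymphoid-like cells (1291 ± 686, n = 3). It stood at 201 ± 40.3 in Cd72-led (n = 3), 165 ± 101 in Cebpb-led (n = 3), 157 ± 11.99 in Saa3-led (n = 2), 138 ± 231 in Ccl8-led (n = 3), 27.3 ± 14.3 in dendritic cell-like (n = 4) and 12.9 ± 5.15 in macrophage-like cells (n = 3). With the cKO mice included the order of the 8 cell types was the same, and the ranges of every pair of neighbours in it overlapped. Monocyte-like cells were 15.16% of all cells and held 57.9% of the Ly6c2 UMIs.

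**Figure D3:**
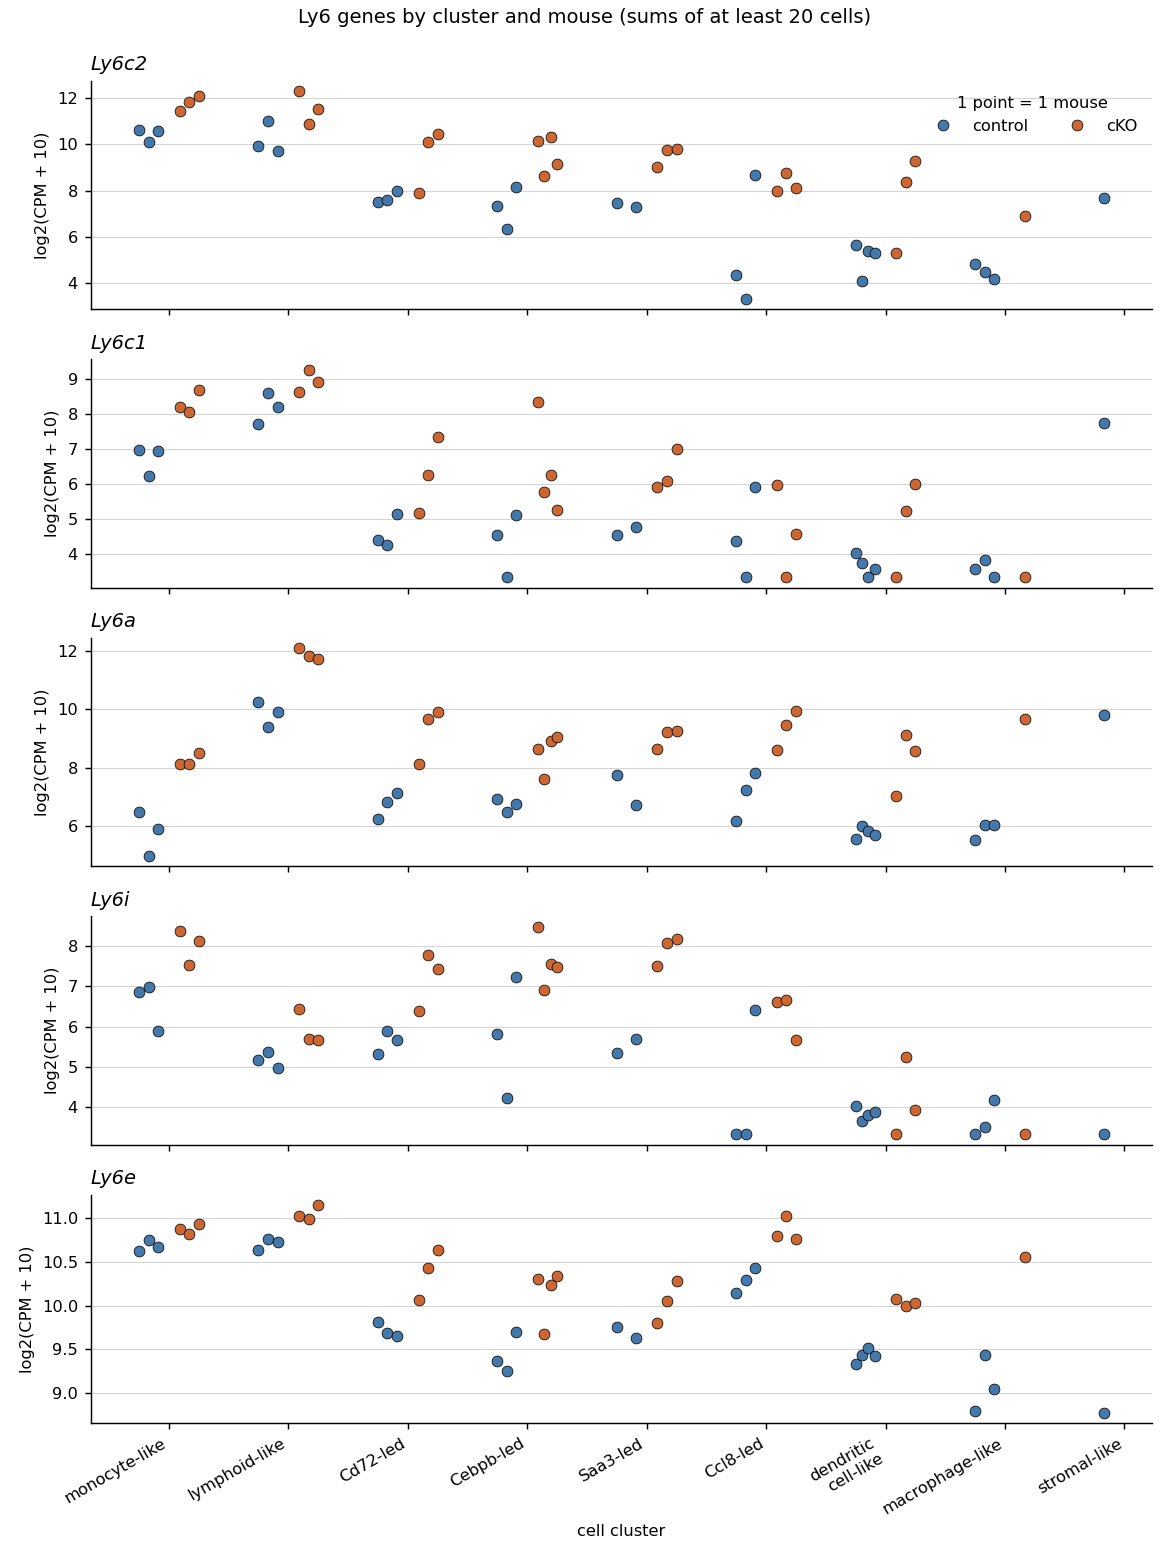
Level of each Ly6 gene, as log2(CPM + 10), in every sum of at least 20 cells, by cluster and condition, with 1 point per mouse. Ly6c2 is highest in monocyte-like and lymphoid-like cells, and Ly6a is high in lymphoid-like cells and in the only stromal-like sum and low in the monocyte-like cells of control mice.

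Ly6a had another order. In control mice it was highest in lymphoid-like cells (946 ± 270 CPM, SD, n = 3), and stromal-like cells stood at 886 CPM in mouse 1. It measured 50.6 ± 29.4 CPM in monocyte-like (n = 3), 49.5 ± 11.1 in macrophage-like (n = 3) and 45.2 ± 7.20 in dendritic cell-like cells (n = 4), values within their spread of each other. Of the Ly6a UMIs 29.58% came from lymphoid-like, 10.89% from stromal-like and 10.43% from monocyte-like cells, although stromal-like cells were 2.68% of all cells.

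Ly6i was highest in monocyte-like cells but, unlike Ly6c2, low in lymphoid-like cells. In control mice it stood at 90.4 ± 35.8 CPM in monocyte-like (n = 3), 65.1 ± 67.5 in Cebpb-led (n = 3), 39.9 ± 9.72 in Cd72-led (n = 3), 36.1 ± 7.97 in Saa3-led (n = 2) and 26.4 ± 5.06 in lymphoid-like cells (n = 3), and at 4.37 ± 1.52 in dendritic cell-like cells (n = 4). Over both conditions Saa3-led cells came second, and the ranges of neighbours in the order overlapped. Monocyte-like and Saa3-led cells held 38.25% and 25.7% of its UMIs, lymphoid-like cells 3.23% and stromal-like cells a single UMI.

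Ly6c1 in control mice was highest in the lymphoid-like cluster (288 ± 89.0 CPM, n = 3), then in monocyte-like cells (98.3 ± 28.6, n = 3), with stromal-like cells between them at 204 CPM in mouse 1. Most Ly6c1 UMIs of the lymphoid-like cluster in these mice came from a few endothelial-like cells, described below. Ly6c1 was lowest in macrophage-like cells (1.99 ± 2.07, n = 3). Ly6e varied less, from 1657 ± 73.1 CPM in lymphoid-like and 1632 ± 72.7 in monocyte-like cells to 544 ± 125 in macrophage-like cells (n = 3 each) and 429 CPM in the stromal-like cells of mouse 1. In cKO mouse 8 the macrophage-like cells (1497 CPM) were above the dendritic cell-like cells (1039 CPM) for Ly6e.

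Shares of cells with a UMI were also taken after each cell was thinned to 1000 UMIs, which left out 178 shallower cells (99 control, 79 cKO). Ly6c2 was found in 74.85% of thinned monocyte-like cells (91.79% unthinned) and 2.73% of thinned macrophage-like cells (10.92% unthinned), at medians of 5250 and 5192 UMIs per cell before thinning. Lymphoid-like cells, close to monocyte-like cells in CPM, were far below them in this share. They stood at 26.4% thinned, beside 27.07% in Cebpb-led and 25.45% in Saa3-led cells. In control monocyte-like cells the thinned shares were 52.85% for Ly6c2 and 5.69% for Ly6a, and in cKO monocyte-like cells they were 82.32% and 20.17%. Both genes were thus found in a larger share of cKO than of control monocyte-like cells.

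The lymphoid-like cluster was not uniform. In a separate graph clustering its 181 cells fell into 3 clusters, which held 182 cells, the remaining cell being of another cluster: 55 cells led by Jchain, Mzb1 and Ly6d (plasma cell-like), 113 led by Gzmb, Cxcr6 and Cd3g (T and innate lymphoid cell-like) and 14 led by Fabp4, Tm4sf1 and Egfl7 (endothelial-like). The plasma cell-like cells held 2022 Ly6c2 UMIs. Their Ly6c2 level was 571, 4055 and 1153 CPM in control mice 1, 2 and 4 and 19870, 8048, 4137 and 6988 CPM in cKO mice 5 to 8, from 4 to 13 cells a mouse. Ly6a in these cells was 1094, 524 and 957 CPM against 3690, 6669, 6194 and 6839 CPM, with no overlap. In the T and innate lymphoid cell-like cells Ly6c2 was 1144 CPM in mouse 1 and at most 114 CPM in the other 6 mice, whereas Ly6a ran from 241 to 1435 CPM. The lymphoid-like sums of control mice 1, 2 and 4 held 23, 48 and 40 Ly6c1 UMIs. Of these the endothelial-like cells (2, 3 and 3 cells) held 16, 30 and 31, and the T and innate lymphoid cell-like cells 5, 0 and 0.

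A few cells weighed heavily. The cell with most Ly6c2 UMIs, a plasma cell-like cell of mouse 5 that was also a doublet call, held 475 of them (3.26% of all Ly6c2 UMIs) and 176 Ly6c1 UMIs (9.6% of all Ly6c1 UMIs). The 10 cells with most UMIs of a gene held 11.58% for Ly6c2, 23.83% for Ly6c1, 14.63% for Ly6a, 10.28% for Ly6i and 1.87% for Ly6e. With dendritic cell-like, lymphoid-like and stromal-like cells left out, the contrast over all cells gave log2 fold changes of 2.96 for Ly6c2, 3.63 for Ly6c1, 2.70 for Ly6a, 2.17 for Ly6i and 0.81 for Ly6e, all called.

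The share of Ly6c1 in the UMIs of both Ly6C genes marked cell types in its own way. It was 8.91% in monocyte-like cells (95% exact binomial interval 8.34 to 9.51) and 8.26 to 9.66% in the other 6 clusters outside the lymphoid-like and stromal-like cells. It was 17.69% in lymphoid-like cells (16.26 to 19.18) and 50.94% in stromal-like cells (44.77 to 57.08). In the 3 graph clusters that held the lymphoid-like cells it was 9.09% (4.01 to 17.13) in T and innate lymphoid cell-like, 13.55% (12.19 to 15.01) in plasma cell-like and 55.8% (49.72 to 61.75) in the 14 endothelial-like cells, in which Ly6i had 0 UMIs. Mouse 5 held 184 of the 317 Ly6c1 and 490 of the 2022 Ly6c2 UMIs of the plasma cell-like cells. The doublet call described above alone held 176 and 475, and it is a lymphoid-like cell as well. The plasma cell-like and lymphoid-like shares therefore rest heavily on that cell. The intervals cover counting error only, and how reads that match both genes were assigned was not tested.

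Within monocyte-like cells the Ly6c1 share was 6.93, 5.59 and 7.03% in control mice 1, 2 and 4 and 9.29, 6.66 and 8.51% in cKO mice 6, 7 and 8. These ranges overlap. Mouse 5 stood apart at 27.38% (23.84 to 31.14) from 9 such cells, of which a single cell held 95 of the 435 Ly6c2 and 41 of the 164 Ly6c1 UMIs. The high share was not confined to these cells. In mouse 5 there were 32 Ly6c1 beside 99 Ly6c2 UMIs in Cd72-led, 21 beside 74 in Cebpb-led and 17 beside 41 in Saa3-led cells. Dendritic cell-like cells held 1 beside 12, and macrophage-like, Ccl8-led and stromal-like cells 0 beside 4, 2 and 2.

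**Figure D4:**
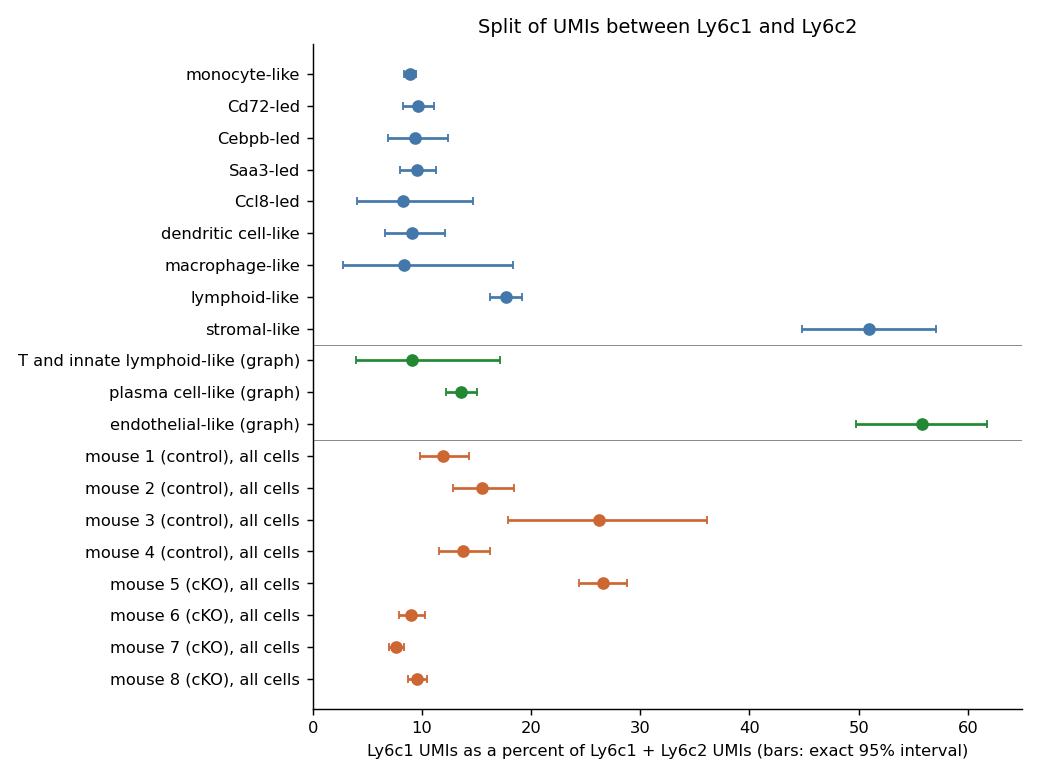
Share of Ly6c1 in the summed Ly6c1 and Ly6c2 UMIs (percent, with 95% exact binomial intervals as bars) by cell type and by mouse. The clusters outside the lymphoid-like and stromal-like cells lie between 8.26 and 9.66%, stromal-like cells at 50.94% and, among mice over all cells, mouse 5 at 26.55%.

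The members were then set against 2 lists that do not contain them, 55 detected interferon response genes and the 12 monocyte genes, over 48 sums of a mouse and a cluster. The correlations are Pearson's r of log2(CPM + 10). They are a description, since sums of a mouse share its library. The interferon list was itself highest in monocyte-like cells, at 23180 CPM over both conditions against 5033 in dendritic cell-like and 4745 in macrophage-like cells. Of 123 control monocyte-like cells thinned to 1000 UMIs, 110 held 7 or more interferon UMIs. Across all sums r therefore cannot by itself tell whether a member follows the monocytes or the interferon list. Across all sums r with the interferon list was 0.606 for Ly6c2, 0.335 for Ly6c1, 0.304 for Ly6a, 0.754 for Ly6i and 0.473 for Ly6e. With the monocyte list r was 0.472, 0.269, -0.145, 0.695 and 0.134 in the same order of genes. Over all 48 sums Ly6i thus had the highest r with both lists. In the 23 cKO sums alone r with the interferon list was 0.246, 0.032, -0.401, 0.652 and -0.048 in this order. With the monocyte list it was 0.299, 0.229, -0.636, 0.722 and -0.272, so Ly6a changed sign with the interferon list and Ly6e with both. Without the lymphoid-like and stromal-like sums (41 sums left) r with the interferon list was 0.899, 0.749, 0.711, 0.813 and 0.781 in the same order. With the monocyte list it was then 0.872, 0.817, 0.222, 0.814 and 0.509, and Ly6c2 had the highest r with both lists.

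After each cluster's mean was taken out, which leaves the differences between mice inside a cell type, r with the interferon list was 0.910 for Ly6a, 0.900 for Ly6e, 0.815 for Ly6c2, 0.679 for Ly6i and 0.551 for Ly6c1 (47 sums). With the monocyte list it was 0.562, 0.574, 0.755, 0.711 and 0.617. Much of this spread lies between the conditions. Among the control sums alone the centred r with the interferon list was 0.454 for Ly6a and 0.546 for Ly6e, and 0.646 and 0.562 among the cKO sums. Without 1 mouse the control values fell as low as 0.151 and 0.453 and the cKO values as low as -0.281 and 0.254, so that of Ly6a among cKO sums rests on a single mouse. For Ly6c2 the centred r with the interferon list was 0.558 in control and 0.58 in cKO sums, and with the monocyte list 0.847 and 0.325. Without 1 mouse the control values fell as low as 0.056 and 0.026 and the cKO values as low as 0.247 and 0.221.

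Inside a cluster the cells could be ordered by how many UMIs of a list they held among 1000. In control Cd72-led cells Ly6c2 was higher along the monocyte list, from 0.043 UMIs per 1000 (95% exact Poisson interval 0.0186 to 0.0847, counting error only) in cells with 0 or 1 monocyte UMIs to 0.123, 0.273 and 0.957 (0.698 to 1.28) in cells with 2 or 3, 4 to 6 and 7 or more. Ly6a in the same cells was 0.0699, 0.0923, 0.182 and 0.106, with intervals that overlap at both ends. Along the interferon list Ly6c2 was 0.0682, 0.0725 and 0.0833 in the lower 3 bins and 0.434 (0.332 to 0.556) in cells with 7 or more interferon UMIs, where Ly6a was 0.182 (0.119 to 0.266) after 0.0227 to 0.058 in the lower bins. Ly6e went from 0.591 (0.386 to 0.866) to 1.2 (1.02 to 1.39) along the interferon list.

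In Cd72-led cells Ly6a and Ly6c2 differed between control and cKO cells by more than counting error in each of the 4 monocyte bins. Cells with 0 or 1 monocyte UMIs had 0.0699 Ly6a UMIs per 1000 (0.0372 to 0.12) in 186 control cells and 0.649 (0.482 to 0.856) in 77 cKO cells. Ly6c2 in them was 0.043 and 0.338 (0.221 to 0.495), and Ly6i was 0.0269 (0.00873 to 0.0627) and 0.013 (0.000329 to 0.0724). In the cells with 7 or more monocyte UMIs Ly6i was 0.106 (0.0345 to 0.248) in 47 control and 0.575 (0.365 to 0.863) in 40 cKO cells. At 7 or more interferon UMIs Ly6a was 0.182 in 143 control cells and 0.842 (0.708 to 0.995) in 165 cKO cells. Other clusters did not all show this. In dendritic cell-like cells with 0 or 1 monocyte UMIs the intervals of control and cKO cells overlapped for Ly6c2 (0.00217 to 0.0308 and 0.00591 to 0.176) and for Ly6a (0.0144 to 0.0599 and 0.0266 to 0.25), and in Cebpb-led cells with 4 to 6 Ly6a was 0.3 in control and 0.281 in cKO cells. Cells of a mouse are not replicates, so these contrasts carry no test.

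**Figure D5:**
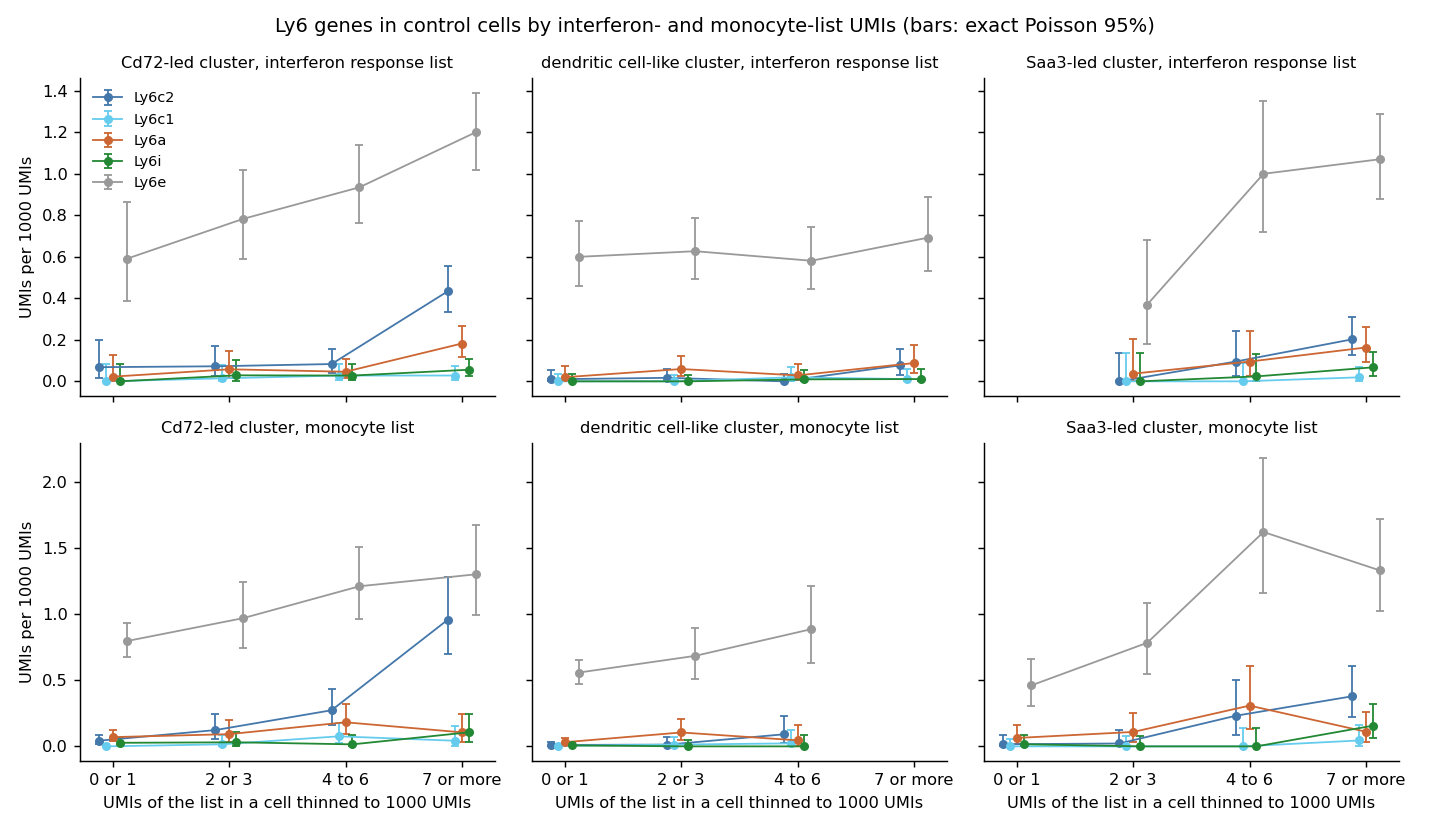
UMIs per 1000 of the Ly6 genes (points) in control cells of the Cd72-led, dendritic cell-like and Saa3-led clusters, binned by the UMIs of the interferon response list (upper panels) or of the monocyte list (lower panels) in a cell thinned to 1000 UMIs, with 95% exact Poisson intervals as bars (counting error only; bins of at least 20 cells are drawn). In Cd72-led cells Ly6c2 goes from 0.043 to 0.957 along the monocyte bins, while Ly6a stays between 0.0699 and 0.182.

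The genes whose levels over the 48 sums were most like those of each member, out of 4781 compared, differed in part between the members, and some were near several of them. For Ly6c2 they were Ly6c1 (r = 0.869), Ms4a4b (0.79), Ly6i (0.759), Capg (0.759) and Isg20 (0.737). For Ly6i they were Trem3 (0.862), Hp (0.797), Clec4e (0.787), Slfn4 (0.777) and Chil3 (0.776), of which Hp and Chil3 are on the monocyte list. For Ly6a they were Bst2 (0.771), which is on the interferon list, the major histocompatibility genes H2-Q7 (0.767) and H2-T22 (0.703), Cd69 (0.697) and Gm8797 (0.67). For Ly6e they were B2m (0.762), Zbp1 (0.748), Shisa5 (0.723), Serp1 (0.719) and Ly6c2 (0.716), and for Ly6c1, after Ly6c2, Capg (0.777), 4930453N24Rik (0.751), H2-T22 (0.745) and Ms4a4b (0.743).

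Among the relatives outside the 5 members, 17 of 35 Ly6/uPAR genes on a list had UMIs and 3 passed the filter over all cells. Ly6d, a lymphoid marker found in 61 cells, was called higher in cKO mice, with 21.3, 9.79, 0 and 15.5 CPM in control and 28.1, 79.8, 51.9 and 40.7 CPM in cKO mice (adjusted p = 0.0255, all 4 cKO mice above the control mice). It was also among the genes that led the plasma cell-like cells. Plaur, the urokinase receptor gene (1.23, adjusted p = 0.0582), and Ly6k (2.27, adjusted p = 0.194) did not pass. Ly6g, the granulocyte antigen gene, and Ly6f had 48 and 52 UMIs in all and were highest in mouse 5, at 26.1 and 24.1 CPM against at most 6.12 and 7.87 CPM elsewhere.

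The bases just upstream are shown for the Ly6C genes alone, because promoter windows were at hand for no other member. From RefSeq (GRCm38.p6) 2 promoter windows each were found for Ly6c1 and Ly6c2. For Ly6a, Ly6i and Ly6e 0 were found, so their promoters were not searched. The letters GAGGAAGT, a sequence of the type bound by the myeloid factor PU.1, are in capitals in the 250 bases before the RefSeq start farther downstream, at chr15:75048664-75048913 for Ly6c1 and chr15:75111938-75112187 for Ly6c2 (minus strand, written 5′ to 3′).
Ly6c1: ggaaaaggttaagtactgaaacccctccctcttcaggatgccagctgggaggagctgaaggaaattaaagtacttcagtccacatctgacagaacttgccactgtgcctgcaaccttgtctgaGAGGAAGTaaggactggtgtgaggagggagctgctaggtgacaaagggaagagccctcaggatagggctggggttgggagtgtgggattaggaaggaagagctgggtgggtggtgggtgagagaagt
Ly6c2: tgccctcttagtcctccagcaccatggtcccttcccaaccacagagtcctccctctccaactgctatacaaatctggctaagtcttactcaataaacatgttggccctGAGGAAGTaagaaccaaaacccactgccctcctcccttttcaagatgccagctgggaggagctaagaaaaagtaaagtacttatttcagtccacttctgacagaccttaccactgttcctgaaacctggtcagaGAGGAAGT

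These RefSeq starts lie inside the gene spans given above, which come from GENCODE. By that annotation the end of each window, with the GAGGAAGT of Ly6c1 and the last one of Ly6c2, falls within the gene.

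GAGGAAGT was searched on both strands and occurred once in the window of Ly6c1, in 2 places in that of Ly6c2 and in 3.2% of 32851 promoter windows of the same length. The interferon-stimulated response element core GAAANNGAA (8.56% of windows) and the interferon-gamma-activated site TTCNNNGAA (8.3%) were found in neither gene's window. A match of letters is not a bound site, and no match says only that these letters are not in these windows.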

How the data were processed

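Cells from 8 mice were sequenced with 10x Genomics 3′ v2 chemistry. The authors aligned reads to mm10 with Cell Ranger and STAR 2.5.3a, keeping 1 alignment per read, and deposited a table of raw UMI counts per gene and cell for all 8 wells. Members, lists and tests were chosen with earlier results of these data known. Cells were kept at a log10 UMI count of at least 2.8, log10 genes of at least 2.6 and at most 5% mitochondrial UMIs. Clusters (scran 1.30.0, 7 principal components, Ward linkage) were built from 11947 genes less 256, namely the Ly6 genes, the interferon lists and genes listed by the study. Sums of UMI counts, over all cells of a mouse or over its cells in a cluster (20 or more), were tested with edgeR 4.0.16 (quasi-likelihood, TMM, R 4.3.3) with Benjamini-Hochberg adjustment at 0.05 over all genes tested. Over all cells genes were filtered by edgeR's filterByExpr. In cluster sums genes needed over 1 CPM in 3 sums and UMIs in 20 cells. Means, SDs, CPM and intervals were computed with Python 3.11.15. limma 3.58.1, DESeq2 1.42.0, other clusterings, filters and left-out mice were tried as alternatives, and tests were checked on simulated counts. Named genes were the members, relatives with over 50 UMIs or a call, 10 yardstick genes and the 5 genes most like each member. Ly6g was named after its values were seen. Mice were handled on the same day, and wells held about 3000 loaded cells. Totals of 497531 to 3762314 UMIs per mouse set the precision. Of the 10 yardstick genes 1 is not reported here.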

Additional observations from a re-analysis of the deposited data

Results flagged for a closer look

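Of 12 groups of 4 mice checked for a mouse far from the rest (5 members and the Ly6c1 share, in each condition), 3 had a gap to the nearest mouse, as a share of the group's range, past Dixon's critical value. Chance gives about 1 in 20. Ly6a over all cells measured 220.7 CPM in control mouse 3 against 128.9 to 143.7 CPM in the other control mice. Ly6c1 measured 842.2 CPM in cKO mouse 5 against 129.4 to 189.9 CPM in the other cKO mice. The Ly6c1 share of the Ly6c1 and Ly6c2 UMIs was 26.55% in cKO mouse 5 against 7.65 to 9.57% in the other cKO mice. Mice 3 and 5 gave the fewest cells, 85 and 83, and mouse 5 had 24 of the 73 doublet calls. What set these mice apart was not tested.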

How the results depend on the processing

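No paired analysis was possible because control mice carry numbers 1 to 4 and cKO mice 5 to 8, so the groups share no replicate number. The 5 members stayed called and higher in cKO mice under each of 15 alternatives over all cells and 14 averaged over clusters. The number of genes called over all cells, 505, was 928 with a likelihood ratio test, 787 with no filter on low counts, 335 without doublet calls, 311 without dendritic cell-, lymphoid- and stromal-like cells, and 141 to 686 without 1 mouse (141 without mouse 2, 142 without mouse 1, 172 without mouse 7, 251 without mouse 8). Averaged over clusters it was 433, with 274 when all genes entered the clustering and 247 to 481 without 1 mouse (247 without mouse 8). With all genes in the clustering the averaged log2 fold change of Ly6c2 was 3.10 and that of Ly6i 2.30, and graph clustering gave 2.62 for Ly6i. Of 35 tests of a member in a cluster 14 passed, 22 with no filter on low counts and 5 to 22 without 1 mouse (5 without mouse 8, 22 without mouse 6). Members called per cluster became 0 in Cebpb-led and 0 in Ccl8-led cells in limma-voom, 4 in dendritic cell-like, 1 in monocyte-like and 4 in Cebpb-led cells in DESeq2, 4 in Cebpb-led, 4 in Saa3-led and 2 in lymphoid-like cells with no filter, 4 in Cebpb-led and 4 in Saa3-led cells with each cluster fitted alone, and 2 in Cebpb-led cells from 10 cells a sum. Without 1 mouse the numbers ran from 1 to 5 (Cd72-led), 1 to 3 (dendritic cell-like), 1 to 4 (monocyte-like), 0 to 4 (Cebpb-led), 1 to 4 (Saa3-led), 0 to 1 (Ccl8-led) and 0 to 1 (lymphoid-like). Without mouse 1 or 4 the Saa3-led control arm was a single sum, assumed to vary like the rest. Ly6e in monocyte-like cells was 1990 CPM with 12 clusters and 1909 CPM with graph clustering against 1751 CPM. In control sums alone r with the interferon list was 0.485 (Ly6c2), 0.204 (Ly6c1), -0.223 (Ly6a, a change of sign), 0.658 (Ly6i) and 0.280 (Ly6e), and with the monocyte list 0.177 (Ly6c1), -0.248 (Ly6a) and 0.666 (Ly6i). On log2(CPM + 1) it was 0.349 for Ly6c1 and 0.643 for Ly6i with the monocyte list and 0.669 for Ly6i with the interferon list. Mice 3 and 5, the libraries under 100 cells, were left out together as an alternative chosen after seeing the data, which gave 413 genes over all cells and 15 of 35 tests. Apart from these constructions the causes were not tested. Macrophage-like and stromal-like cells were too few per cKO mouse to be tested.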
